A study of Mus musculus with 1 sample.

Results

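The genes described here are *Rdh10*, *Aldh1a1*, *Aldh1a2*, *Aldh1a3*, *Cyp26b1*, *Crabp1*, *Crabp2*, *Rara* and *Rarg*, which make, break down, bind and sense retinoic acid. They were chosen by symbol, as 9 of the 22631 features of a single-cell RNA library of control mouse fetal testis. The rule uses no measured value, although the genes were chosen with earlier results of these data known. All 9 were detected, with between 153 UMIs (*Aldh1a3*) and 27248 UMIs (*Aldh1a1*) in the kept cells. A UMI, or unique molecular index, marks 1 captured messenger RNA molecule.

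Retinoic acid is made from vitamin A (retinol) in a pair of oxidations. Retinol dehydrogenases such as RDH10 give retinaldehyde, and the retinaldehyde dehydrogenases ALDH1A1, ALDH1A2 and ALDH1A3 turn it into retinoic acid. Enzymes of the CYP26 family degrade retinoic acid, the small proteins CRABP1 and CRABP2 carry it inside the cell, and the receptors RARA, RARB and RARG, paired with RXR partners, switch genes on when they bind it. In the fetal gonad, retinoic acid promotes expression of *Stra8* and entry of germ cells into meiosis, and CYP26B1 is known for keeping this signal away from germ cells of the fetal testis.

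Testes of control fetuses, labelled WT and embryonic day 14.5, were dissociated and captured with the 10x Genomics 3′ chemistry, and the authors counted UMIs per gene and cell against mm10 with YFP added. By the study's methods the controls were *Nr5a1* L2/L2 fetuses, which carry floxed alleles of *Nr5a1* without the Plekha5 Tg(AMH-cre)1Flor transgene that drives Cre in Sertoli cells, on a mixed C57BL/6 and 129/SvPass background. The study's text names an earlier day beside day 14.5. The 12 control testes were pooled into 1 library, so there was no replicate, no test was made, and the library of the mutants was not used here.

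The library held 72595083 UMIs in 5421 barcodes, and 3822 cells with 54892824 UMIs were kept (median 12104 UMIs and 3585 genes per cell). They formed 16 clusters, of which 14 were named as a class of cells from marker lists holding none of these 9 genes, and the genes of the retinoic acid pathway were left out of the clustering. Sertoli-like cells numbered 853, interstitial-like 1352, peritubular myoid-like 526, Leydig-like 313, germ-like 251, coelomic epithelium-like 148, perivascular-like 105, immune-like 35, rete testis-like 31, erythroid-like 31 and endothelial-like 24. A cluster of 90 cells led by *Gdf10* and *Foxp2* (cluster 10) and one of 63 shallow cells led by *Cited1* and *Gstm6* (cluster 11, median 3181 UMIs) kept no name. *Nr5a1*, the gene deleted in the mutants, was at 73.6 UMIs per 1,000,000 in Sertoli-like and 225 in Leydig-like cells.

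The level of a gene in a group of cells was the sum of its UMIs per 1,000,000 UMIs of the group (CPM), with a 95% interval from the exact Poisson limits. The share of cells showing a UMI was taken after thinning each cell to 5000 UMIs, with an exact (Clopper-Pearson) 95% interval, because germ-like cells were far deeper (median 36155 UMIs) than interstitial-like cells (median 9323 UMIs). Cells under 5000 UMIs were left out of the shares, 16 of the Sertoli-like, 3 of the Leydig-like and 51 of the 63 in cluster 11. Both intervals cover counting error only, and 1 library gives no measure of the spread between animals. The reads come from the 3′ end, so each molecule counts as 1 whatever its length, and the counts of different genes were not divided by length.

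**Figure D1:**
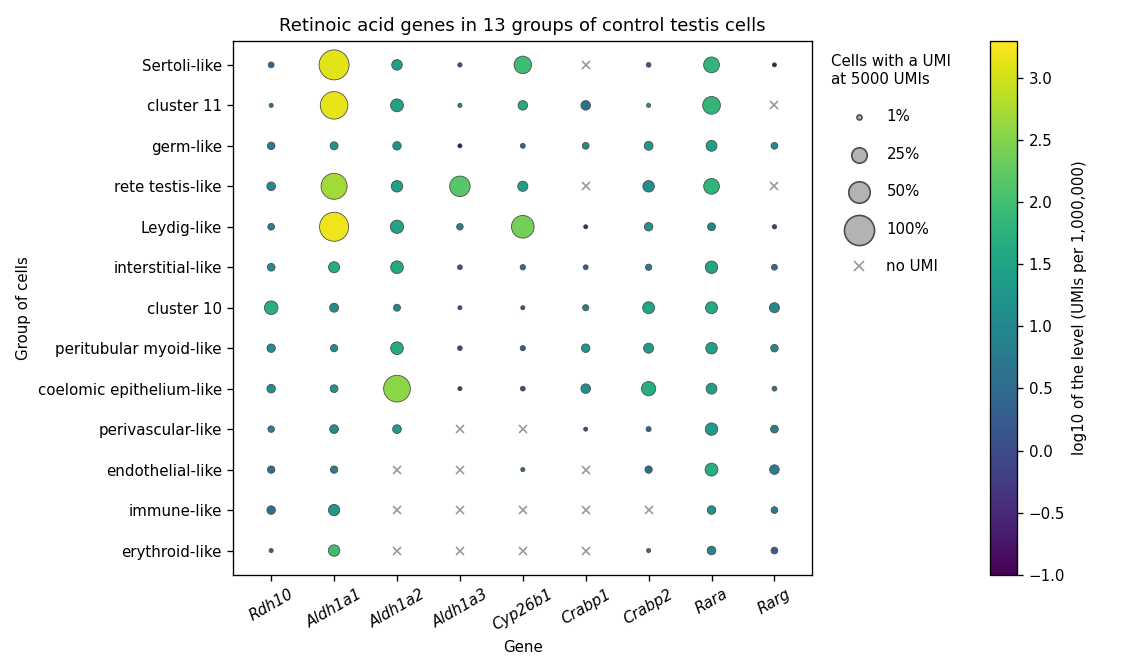
Levels of the 9 genes (columns) in 13 groups of cells (rows); colour gives the log10 of the level in UMIs per 1,000,000, circle size the share of cells with a UMI at 5000 UMIs per cell, and a cross marks a group without a UMI. *Aldh1a1* stands out in Sertoli-like (1297 CPM) and Leydig-like cells (1578 CPM), *Aldh1a2* in coelomic epithelium-like cells (354 CPM), *Aldh1a3* in rete testis-like cells (144 CPM) and *Rdh10* in cluster 10 (50.4 CPM); circles of cluster 11 rest on 12 cells.

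The retinaldehyde dehydrogenase genes each had a different leading group of cells. *Aldh1a1* was at 1578 CPM (95% interval 1546 to 1611) in Leydig-like cells and at 1297 CPM (1277 to 1317) in Sertoli-like cells, *Aldh1a2* at 354 CPM (332 to 377) in coelomic epithelium-like cells, and *Aldh1a3* at 144 CPM (111 to 185) in rete testis-like cells. Of the 13172 genes with at least 50 UMIs, those at least 4-fold higher than in all other cells, with 5 CPM added to each side, were 2.52% in Sertoli-like, 1.43% in Leydig-like, 0.759% in coelomic epithelium-like and 0.972% in rete testis-like cells. Among the 9 genes, *Aldh1a1* passed that fold in Sertoli-like cells, *Aldh1a1* and *Cyp26b1* in Leydig-like cells, *Aldh1a2* in coelomic epithelium-like cells and *Aldh1a3* in rete testis-like cells.

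The promoters of the 3 enzyme genes with the most UMIs are shown because the levels of these genes differed widely between the groups of cells. RefSeq sequence of the GRCm38.p6 build was used, from 250 bases before to 50 bases after the annotated start, 5′ to 3′ on the strand of the gene. For *Aldh1a1* the start inside the gene is shown, at chr19:20601718-20602017 (plus strand), for *Aldh1a2* chr9:71215539-71215838 (plus strand), and for *Cyp26b1* chr6:84593761-84594060 (minus strand). Capitals mark CCAAT in *Aldh1a1* and *Aldh1a2*, and TATAAA in *Cyp26b1*. Counted from the RefSeq start, they begin at -72 and -2 in *Aldh1a1*, -36 in *Aldh1a2* and -139 in *Cyp26b1*.
Aldh1a1: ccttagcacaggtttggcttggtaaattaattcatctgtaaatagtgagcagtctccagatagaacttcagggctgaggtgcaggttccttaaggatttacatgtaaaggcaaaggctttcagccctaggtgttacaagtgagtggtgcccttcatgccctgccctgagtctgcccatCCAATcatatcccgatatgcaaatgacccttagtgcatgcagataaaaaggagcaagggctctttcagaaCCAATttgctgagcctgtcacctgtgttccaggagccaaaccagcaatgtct
Aldh1a2: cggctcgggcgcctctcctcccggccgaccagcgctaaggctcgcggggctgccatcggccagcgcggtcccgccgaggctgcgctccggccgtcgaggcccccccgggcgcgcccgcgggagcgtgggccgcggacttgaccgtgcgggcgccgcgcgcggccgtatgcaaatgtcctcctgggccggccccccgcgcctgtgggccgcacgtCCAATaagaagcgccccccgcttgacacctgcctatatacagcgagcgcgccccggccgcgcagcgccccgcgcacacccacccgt
Cyp26b1: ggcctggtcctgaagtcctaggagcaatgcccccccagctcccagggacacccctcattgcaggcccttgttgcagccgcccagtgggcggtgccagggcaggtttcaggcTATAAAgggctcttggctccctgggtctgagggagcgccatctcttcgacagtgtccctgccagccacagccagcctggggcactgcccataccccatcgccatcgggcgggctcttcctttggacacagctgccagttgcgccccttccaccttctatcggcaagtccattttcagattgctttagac

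Searched on both strands, TATAAA was in 13.6% and CCAAT in 37.4% of the 32851 promoters of the same length. The letters AAGGTCA, the site known for NR5A1, were in 4.72% of all promoters, and AACAAT, the core known for SOX factors, in 10.7%. Of the 11 promoters of 6 of the 9 genes in the RefSeq table, none held AAGGTCA, and 1, of *Rara* at chr11:98964622-98964921, held AACAAT. The retinoic acid receptors bind direct repeats of a half-site, searched as AGGTCA and with the changes that give GGGTCA and, likewise, AGTTCA. Such pairs were in 0.0731% of all promoters with a spacing of 5 bases and in 0.0883% with a spacing of 2 bases, and in none of the 11. A match or its absence says only which letters this window holds.

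*Aldh1a1* (ENSMUSG00000053279, chromosome 19, 20492715 to 20643465, plus strand, GRCm38) encodes the retinaldehyde dehydrogenase with the most UMIs in this library. Sertoli-like cells held 61.0% (60.4 to 61.6%) of its UMIs, and 830 of 837 of them (99.2%, 98.3 to 99.7%) had one at 5000 UMIs. The part of the UMIs that a class held depends on the cells kept, here 853 Sertoli-like and 313 Leydig-like cells. Without the filter on outlier cells there were 1354 and 392. In Leydig-like cells the share was 92.9% (89.4 to 95.5%), and the level was 1.22-fold (1.19 to 1.25) that of Sertoli-like cells, a small difference that counting error alone does not span. Single Sertoli-like cells ranged from 6.71 UMIs per 10,000 at the 10th percentile to 20.2 at the 90th, with a median of 12.2, and single Leydig-like cells from 3.93 to 29.2, with a median of 13.9, so the distributions overlapped over most of their range.

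Rete testis-like cells came next, at 505 CPM (440 to 577), 0.390-fold (0.339 to 0.445) of Sertoli-like cells. These 31 cells had *Pax8*, a marker of the rete, at 170 CPM, and the Sertoli gene *Amh* at 182 CPM against 1988 CPM in Sertoli-like cells. The Leydig gene *Cyp11a1* was at 4.66 CPM. If all of that *Amh* and *Cyp11a1* were free RNA, they would together have carried along 119.5 CPM of *Aldh1a1*. Of the *Aldh1a1* UMIs, 59.4% were held by 7 of the 31 cells. The part of Sertoli RNA in this level was not tested further. Cluster 11 was at 1388 CPM (1245 to 1543), and its ratio to Sertoli-like cells, 1.07 (0.959 to 1.19), did not leave 1, with *Amh* at 880 CPM there.

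Elsewhere *Aldh1a1* was low, at 87.4 CPM (64.2 to 116) in erythroid-like and 45.6 CPM (42.1 to 49.4) in interstitial-like cells, and between 6.72 and 20.2 CPM in the other groups. Free RNA gives UMIs in cells that do not express a gene, so each level was set beside the one that free RNA would carry along if every *Amh* and *Cyp11a1* UMI of the group were free. That level was 9.16 CPM in interstitial-like, 12.95 in erythroid-like, 8.96 in germ-like and 10.2 in cluster 10, and it lay inside the interval of the measured level in cluster 10 and in endothelial-like cells. It assumes that free RNA holds these genes in the ratio of the source cells, and is not an upper limit. In barcodes under 200 genes *Aldh1a1* was at 12.8 CPM (7.57 to 20.2). Of the UMIs of these barcodes, 46.8% were of hemoglobin and 49.2% of mitochondrial genes, so their CPM does not measure free RNA in a cell. The levels of coelomic epithelium-like (16.6), germ-like (14.7), perivascular-like (13.5) and peritubular myoid-like cells (11.7) lay inside the interval of these barcodes. The part of free RNA in them was not tested further. A few cells held much of the low levels in some groups. In interstitial-like cells, 12 of 1352 cells with at least 10 UMIs each held 30.8% of the UMIs, and without them the level was 31.9 CPM (29.0 to 35.1). A single coelomic epithelium-like cell held 23 of the 46 UMIs of that class, and a single erythroid-like cell 17 of 47.

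*Aldh1a7*, a close paralogue of *Aldh1a1* whose reads could be split between the genes, was counted at 119 CPM (110 to 128) in Leydig-like and 27.9 CPM (25.1 to 31.0) in Sertoli-like cells. Its share of the UMIs of both genes was 7.02% (6.52 to 7.54%) in Leydig-like, 2.11% (1.90 to 2.34%) in Sertoli-like and 13.1% (10.7 to 15.8%) in interstitial-like cells. These 3 intervals do not overlap. How reads shared by the genes were split was not tested, so the levels of either gene are uncertain to that extent.

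**Figure D2:**
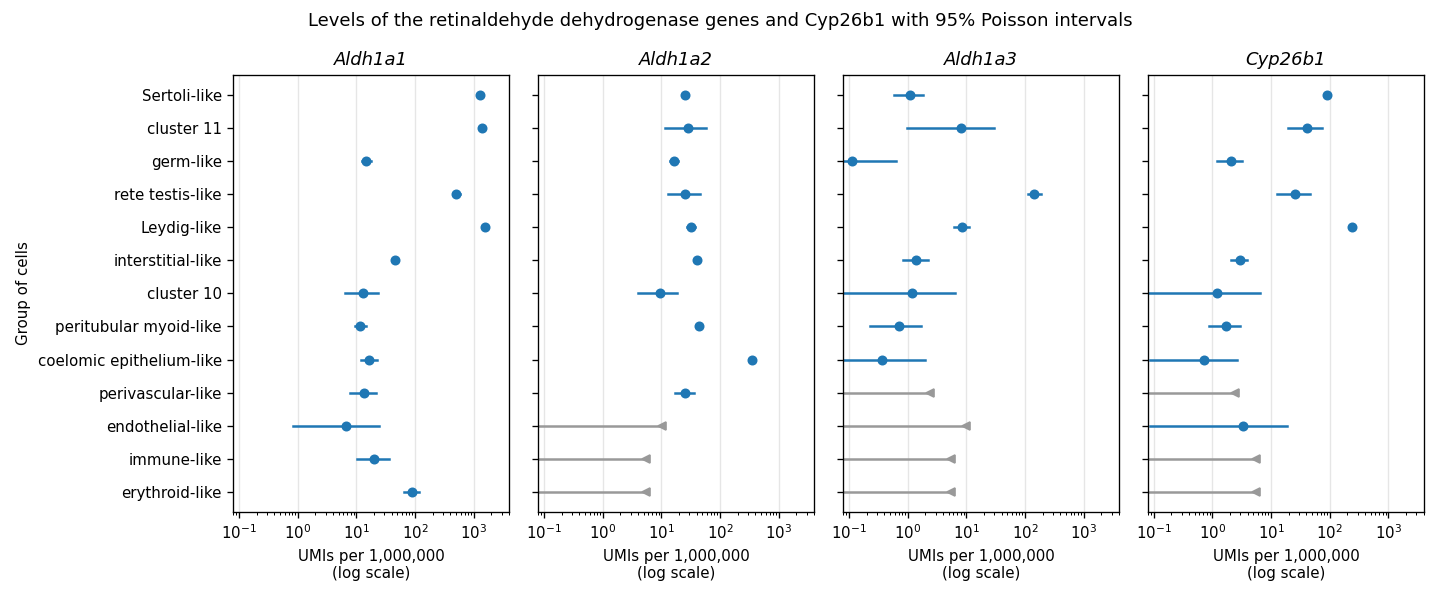
Levels of *Aldh1a1*, *Aldh1a2*, *Aldh1a3* and *Cyp26b1* (one panel each) in UMIs per 1,000,000 on a log axis, for 13 groups of cells; points are levels, lines exact Poisson 95% intervals, and grey arrows the level of 3 counts in groups without a UMI. *Aldh1a2* is at 354 CPM in coelomic epithelium-like cells and between 9.37 and 44.2 CPM in the other groups with a UMI, whereas *Aldh1a1* spans 6.72 to 1578 CPM.

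*Aldh1a2* (ENSMUSG00000013584, chromosome 9, 71215789 to 71296243, plus strand) is the main retinoic acid synthesis gene of many embryonic tissues. Its level in coelomic epithelium-like cells was 8.02-fold (7.05 to 9.14) that of the next group, peritubular myoid-like cells at 44.2 CPM (39.4 to 49.4), and 8.76-fold (7.88 to 9.75) that of interstitial-like cells at 40.4 CPM (37.1 to 44.0). Of 143 coelomic epithelium-like cells, 112 (78.3%, 70.7 to 84.8%) had a UMI at 5000 UMIs, against 16.1% (13.1 to 19.6%) of peritubular myoid-like and 10.6% (8.63 to 12.9%) of Sertoli-like cells. Per cell the coelomic epithelium-like values ran from 1.15 UMIs per 10,000 at the 10th percentile to 6.12 at the 90th, with a median of 3.33, while the median was 0 in all other groups.

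The low level of *Aldh1a2* was spread over many groups. It was 32.1 CPM (27.6 to 37.1) in Leydig-like, 25.8 CPM (23.0 to 28.7) in Sertoli-like, 25.4 CPM (17.4 to 35.9) in perivascular-like and 16.5 CPM (13.9 to 19.4) in germ-like cells. No UMI was seen in 35 immune-like, 31 erythroid-like and 24 endothelial-like cells, where 3 counts would give 5.50, 5.58 and 10.1 CPM. *Upk3b*, a marker of the coelomic epithelium, had no UMI in Leydig-like cells and 4 in Sertoli-like cells, so free RNA from coelomic cells would carry along 0 and 0.334 CPM of *Aldh1a2* there. Coelomic epithelium-like cells held 38.4% (36.5 to 40.3%) of the *Aldh1a2* UMIs. Free RNA from other cells is not covered by these values and was not tested. In the order of levels, Leydig-like cells, cluster 11, Sertoli-like, rete testis-like and perivascular-like cells each did not differ from the next of these beyond counting error, although Leydig-like cells were 1.25-fold (1.035 to 1.496) above Sertoli-like cells.

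*Aldh1a3* (ENSMUSG00000015134, chromosome 7, 66390890 to 66427517, minus strand) had 153 UMIs in all, 62 of them in the 31 rete testis-like cells. It was among the 10 leading genes of their cluster, although it was left out of the clustering. There 14 of 31 cells (45.2%, 27.3 to 64.0%) had a UMI at 5000 UMIs, and the level was 17.4-fold (11.7 to 25.8) that of Leydig-like cells at 8.32 CPM (6.14 to 11.0). Sertoli-like cells were at 1.09 CPM (0.597 to 1.83), 7.62-fold (4.13 to 15.0) below Leydig-like cells. Perivascular-like, immune-like, erythroid-like and endothelial-like cells had no UMI. With every cell assigned singly by marker genes, 47 cells were rete testis-like and the level was 63.8 CPM.

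The mix of the 3 synthesis genes differed between groups, and rete testis-like cells had the largest part of *Aldh1a3*. Of the rete testis-like *Aldh1a1*, *Aldh1a2* and *Aldh1a3* UMIs together, 74.8% were of *Aldh1a1*, 3.79% of *Aldh1a2* and 21.4% of *Aldh1a3*. In Sertoli-like cells 98.0% were of *Aldh1a1*, in coelomic epithelium-like cells 95.4% were of *Aldh1a2*, and in interstitial-like cells 52.2% were of *Aldh1a1* and 46.2% of *Aldh1a2*. These are shares of molecules counted, and say nothing of the activity of the enzymes.

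*Cyp26b1* (ENSMUSG00000063415, chromosome 6, 84571414 to 84593908, minus strand), which encodes the retinoic acid-degrading enzyme of the fetal testis, was highest in Leydig-like cells. It was at 241 CPM (229 to 254) there, 2.66-fold (2.46 to 2.88) the 90.7 CPM (85.6 to 96.1) of Sertoli-like cells. A UMI was seen at 5000 UMIs in 173 of 310 Leydig-like cells (55.8%, 50.1 to 61.4%) and in 273 of 837 Sertoli-like cells (32.6%, 29.5 to 35.9%). Of its 2648 UMIs, 1391 were in Leydig-like and 1163 in Sertoli-like cells, a split that also depends on how many cells of each class were kept. The related genes *Cyp26a1* and *Cyp26c1* had no UMI in any kept cell, so no other member of the family was detected at this depth.

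Outside these classes *Cyp26b1* was at 40.4 CPM (19.4 to 74.2) in cluster 11 and 25.6 CPM (12.8 to 45.8) in rete testis-like cells, and at 3.36 CPM or less in each of the other groups. In interstitial-like cells it was 2.89 CPM (2.05 to 3.95), with a UMI in 1.32% of cells, and in germ-like cells 2.04 CPM (1.21 to 3.22), with a UMI in 0.810%. Free RNA would carry along 0.8999 and 0.764 CPM, respectively, and 53.6 CPM in cluster 11, inside the interval of the level measured there. In barcodes under 200 genes *Cyp26b1* was at 2.84 CPM (0.773 to 7.26), an interval that holds the interstitial-like and germ-like levels. As above, the CPM of these barcodes does not measure free RNA in a cell. Perivascular-like, immune-like and erythroid-like cells had none. Interstitial-like and Leydig-like cells, which neighbour each other between the cords, thus differed widely for both enzymes, with *Aldh1a1* at 0.0289-fold (0.0266 to 0.0314) and *Cyp26b1* at 0.0120-fold (0.00848 to 0.0165) of the Leydig-like level.

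**Figure D3:**
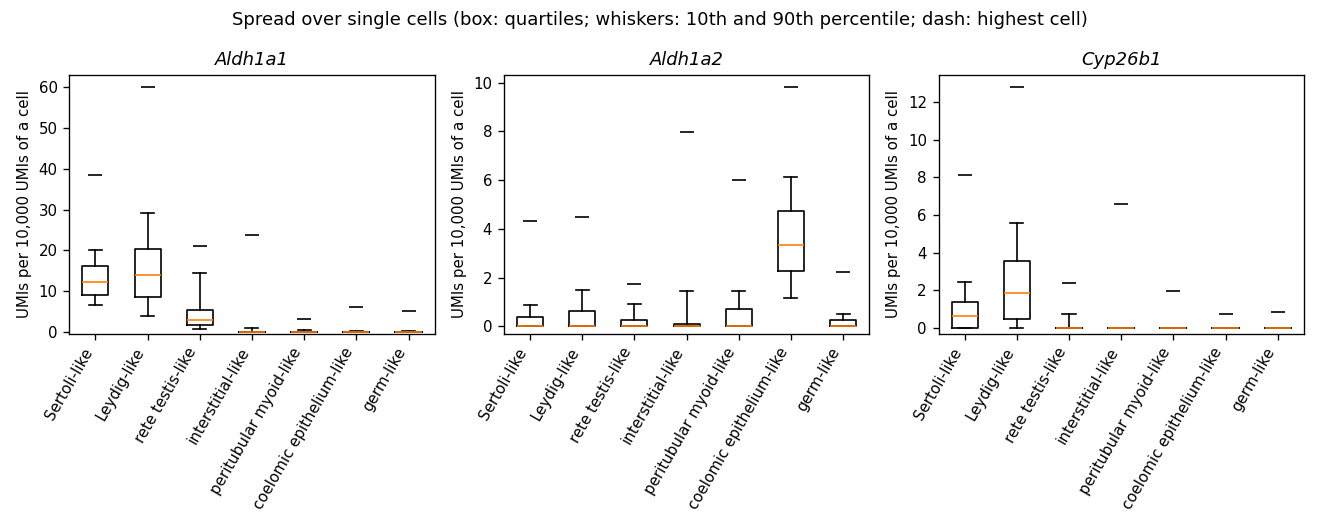
Spread of *Aldh1a1*, *Aldh1a2* and *Cyp26b1* over single cells, in UMIs per 10,000 UMIs of a cell; boxes are quartiles with the median as a line, whiskers the 10th and 90th percentiles and dashes the highest cell of 7 classes. The medians of *Aldh1a1* are 12.2 in Sertoli-like and 13.9 in Leydig-like cells and 0 in interstitial-like, peritubular myoid-like, coelomic epithelium-like and germ-like cells.

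Synthesis and breakdown genes were seen in the same cells (counts at 5000 UMIs, a description with no test). Of the 273 thinned Sertoli-like cells with a *Cyp26b1* UMI, 272 also had one of *Aldh1a1*, which nearly all Sertoli-like cells had. Of the 173 Leydig-like cells with *Cyp26b1*, 165 had *Aldh1a1*, near the share among all 310 (288 cells). *Cyp26b1* made up 12.97% (12.3 to 13.6%) of the UMIs of the 4 enzyme genes *Aldh1a1*, *Aldh1a2*, *Aldh1a3* and *Cyp26b1* in Leydig-like cells, 6.41% (6.06 to 6.78%) in Sertoli-like cells and 0.194% (0.0235 to 0.6996%) in coelomic epithelium-like cells, where 2 UMIs of *Cyp26b1* stood against 1028 of the synthesis genes.

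The Leydig-like class was made of 2 clusters that differed in steroid synthesis genes. The cluster of 129 cells led by *Clps* and *Cyp11a1* had *Cyp11a1*, the first enzyme of steroid synthesis, at 10919 CPM, and the cluster of 184 cells led by *Nppc* and *Vsnl1* at 2549 CPM. *Cyp26b1* was 1.478-fold (1.33 to 1.65) higher in the *Nppc* and *Vsnl1* cluster, 294 CPM (274 to 316) against 199 CPM (184 to 215), although similar shares of cells had a UMI at 5000 UMIs (56.8 and 54.3%). *Aldh1a1* went the other way, at 1445 CPM (1399 to 1493) against 1683 CPM (1639 to 1729). Both clusters were above Sertoli-like cells for *Cyp26b1*, 3.24-fold (2.96 to 3.56) and 2.19-fold (1.99 to 2.42).

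Other genes separated these clusters more. *Aldh1a2* was 4.89-fold (3.40 to 7.18) higher in the *Nppc* and *Vsnl1* cluster, 57.7 against 11.8 CPM, and *Crabp2* 4.67-fold (2.82 to 8.09), 29.0 against 6.21 CPM. Of the wider pathway, *Dhrs3*, which reduces retinaldehyde back to retinol, was 2.80-fold (2.31 to 3.40) higher there. *Adh1*, an alcohol dehydrogenase that can oxidise retinol, was at 0.209-fold (0.185 to 0.236) of the steroidogenic cluster, 120 against 573 CPM. The names of the clusters rest on *Cyp11a1* and other steroid genes and not on these. *Cyp26b1* was itself among the 10 leading genes of the *Nppc* and *Vsnl1* cluster, and with the pathway genes in the clustering the Leydig-like class shrank to 227 cells, with *Cyp26b1* at 262 CPM. With these genes left out, the class also shrank, to 221 cells after log-normalization, 238 without removal of doublets and 264 with each cell classed by itself. Under the other alternatives of filtering and resolution it held 304 to 392 cells.

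**Figure D4:**
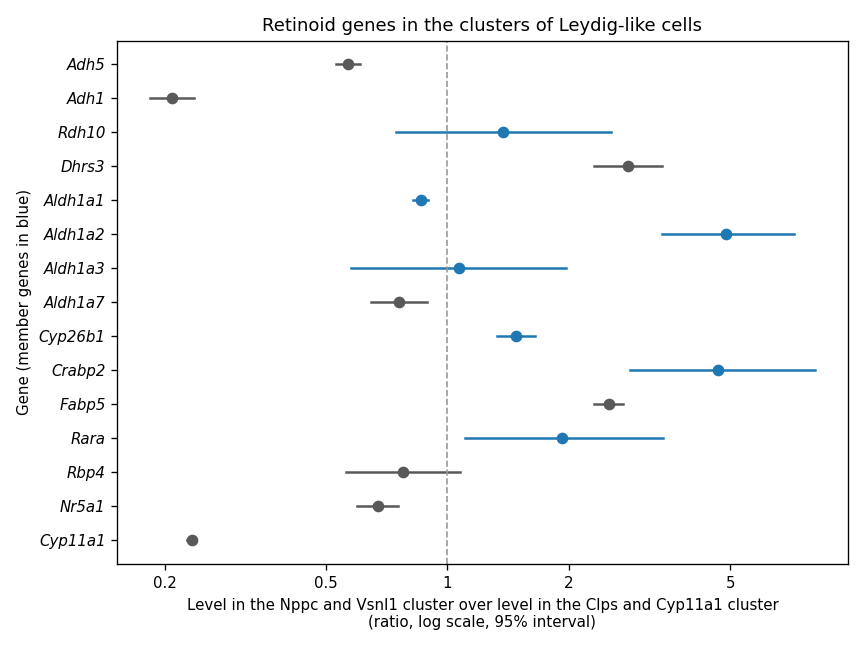
Ratio of the level in the *Nppc* and *Vsnl1* cluster (184 cells) to that in the *Clps* and *Cyp11a1* cluster (129 cells) for 15 genes, on a log axis; points are ratios, lines 95% intervals from the counts, blue the genes chosen here and grey others. *Aldh1a2* (4.89) and *Crabp2* (4.67) lie farthest to the right, and *Adh1* (0.209) and *Cyp11a1* (0.234) farthest to the left.

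*Rdh10* (ENSMUSG00000025921, chromosome 1, 16105774 to 16133734, plus strand), for the enzyme that feeds retinaldehyde into the pathway, was highest in cluster 10. Its level there was 50.4 CPM (36.5 to 67.9), 3.58-fold (2.27 to 5.67) that of coelomic epithelium-like cells at 14.1 CPM (10.0 to 19.3) and 4.31-fold (3.00 to 6.07) that of interstitial-like cells. Of 85 cells of cluster 10, 16 had a UMI (18.8%, 11.2 to 28.8%) and in at most 6.45% of the cells of any other group. In the cells richest in *Aldh1a1* it was low, 2.50 CPM (1.71 to 3.53) in Sertoli-like and 8.32 CPM (6.14 to 11.0) in Leydig-like cells. Between coelomic epithelium-like, peritubular myoid-like and interstitial-like cells the ratios did not leave 1.

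Cluster 10 also led several retinoid genes that were not used to choose it. Of the 13172 genes, 0.911% were at least 4-fold higher in it than in all other cells. *Rdh10* passed among the 9 genes, and 5 of the 39 pathway genes with at least 50 UMIs did, among them *Rbp4*, *Meis1* and *Meis2*. *Meis2*, a retinoic acid-responsive homeobox gene, was at 532 CPM (484 to 583). These cells had *Aldh1a1* at 12.9 CPM (6.43 to 23.1), *Aldh1a2* at 9.37 CPM (4.05 to 18.5) and a single UMI of *Aldh1a3*. They were left unnamed because *Emcn*, an endothelial marker, was among their leading genes while no interstitial marker was, although all 7 interstitial markers were detected.

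*Crabp1* (ENSMUSG00000032291, chromosome 9, 54764748 to 54773110, plus strand) and *Crabp2* (ENSMUSG00000004885, chromosome 3, 87948666 to 87953376, plus strand) encode the intracellular carriers of retinoic acid. *Crabp1* was at 19.2 CPM (16.1 to 22.8) in peritubular myoid-like, 12.6 CPM (8.80 to 17.6) in coelomic epithelium-like and 11.1 CPM (8.995 to 13.5) in germ-like cells, where 6.21%, 8.39% and 3.24% of cells had a UMI at 5000 UMIs. It was missing from the cells that made the most *Aldh1a1* and *Cyp26b1*. None of 853 Sertoli-like cells had a UMI, which by a limit of 3 counts allows up to 0.352% of cells with a UMI, not of cells expressing the gene, and a level of up to 0.234 CPM, and Leydig-like cells had 1. Germ-like cells had 98.

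*Crabp2* was highest in coelomic epithelium-like cells, 45.1 CPM (37.6 to 53.8), with a UMI in 30 of 143 cells (21.0%, 14.6 to 28.6%). Cluster 10 at 36.3 CPM (24.7 to 51.6) did not differ from it beyond counting error. Peritubular myoid-like, germ-like and Leydig-like cells lay at 21.8, 19.1 and 16.3 CPM, with no neighbour in that order differing from the next. Sertoli-like cells were at 1.33 CPM (0.773 to 2.12), 12.3-fold (7.28 to 22.0) below Leydig-like cells. *Fabp5*, a fatty acid carrier that also binds retinoic acid, was arranged otherwise, with 698 CPM in Sertoli-like and 12.7 CPM in germ-like cells.

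*Rara* (ENSMUSG00000037992, chromosome 11, 98927818 to 98974942, plus strand), a receptor gene, was measured in every group. Sertoli-like cells were at 64.8 CPM (60.5 to 69.4), with a UMI in 219 of 837 cells (26.2%, 23.2 to 29.3%). Rete testis-like cells at 62.9 CPM, cluster 11 at 64.5 CPM and endothelial-like cells at 50.4 CPM were within counting error of the next in the order. Interstitial-like cells lay at 33.8 CPM (30.7 to 37.0), and Sertoli-like cells were 1.92-fold (1.71 to 2.16) above them and 2.29-fold (1.99 to 2.65) above germ-like cells at 28.3 CPM (24.9 to 32.0). Leydig-like cells, with the highest *Cyp26b1*, were near the low end at 10.1 CPM (58 UMIs), 0.155-fold (0.117 to 0.203) of the Sertoli-like level.

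*Rarg* (ENSMUSG00000001288, chromosome 15, 102234938 to 102257517, minus strand), another receptor gene, had 236 UMIs and was distributed unlike *Rara*. It was at 10.1 CPM (8.08 to 12.4) in germ-like cells, 8.26 CPM (6.27 to 10.7) in peritubular myoid-like cells and 10.5 CPM (4.82 to 20.02) in cluster 10, and their ratios did not leave 1. In interstitial-like cells it was 3.63 CPM (2.68 to 4.80), and germ-like cells were 2.77-fold (1.94 to 4.02) above them. Sertoli-like cells had 2 UMIs and Leydig-like cells 3, so the ratio of germ-like to Sertoli-like cells was 64.5 with a wide interval (17.3 to 541). *Rarb*, the third receptor gene of the family and itself induced by retinoic acid, had 100 UMIs, with 9.37 CPM (4.05 to 18.5) in cluster 10, 3.11 CPM in interstitial-like and 0.234 CPM in Sertoli-like cells.

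Germ-like cells, the cells in which retinoic acid would act on meiosis, had transcripts of the receptors *Rara* and *Rarg* and of both carriers. *Aldh1a1* and *Aldh1a2* were at 14.7 and 16.5 CPM there. Of the *Aldh1a1* UMIs, 33.1% lay in 2 of the 251 cells, and without these cells its level was 9.95 CPM (7.97 to 12.3). The 8.96 CPM that free RNA would carry along was taken over all 251 cells and was not recomputed without these 2. Over all 251 cells the level of *Aldh1a1* was 14.7 CPM (12.3 to 17.45), above it. *Aldh1a1* and *Cyp26b1* were among the 8.07% of genes at least 4-fold lower in germ-like cells than in all others, and among the 1.89% so in interstitial-like cells. This was not particular to these classes. Both genes were also so in peritubular myoid-like, coelomic epithelium-like, perivascular-like, endothelial-like, immune-like and erythroid-like cells and in cluster 10, where between 1.61% and 6.07% of genes were. *Stra8* was at 4.07 CPM (2.85 to 5.64) in germ-like cells, 36 of its 37 UMIs.

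**Figure D5:**
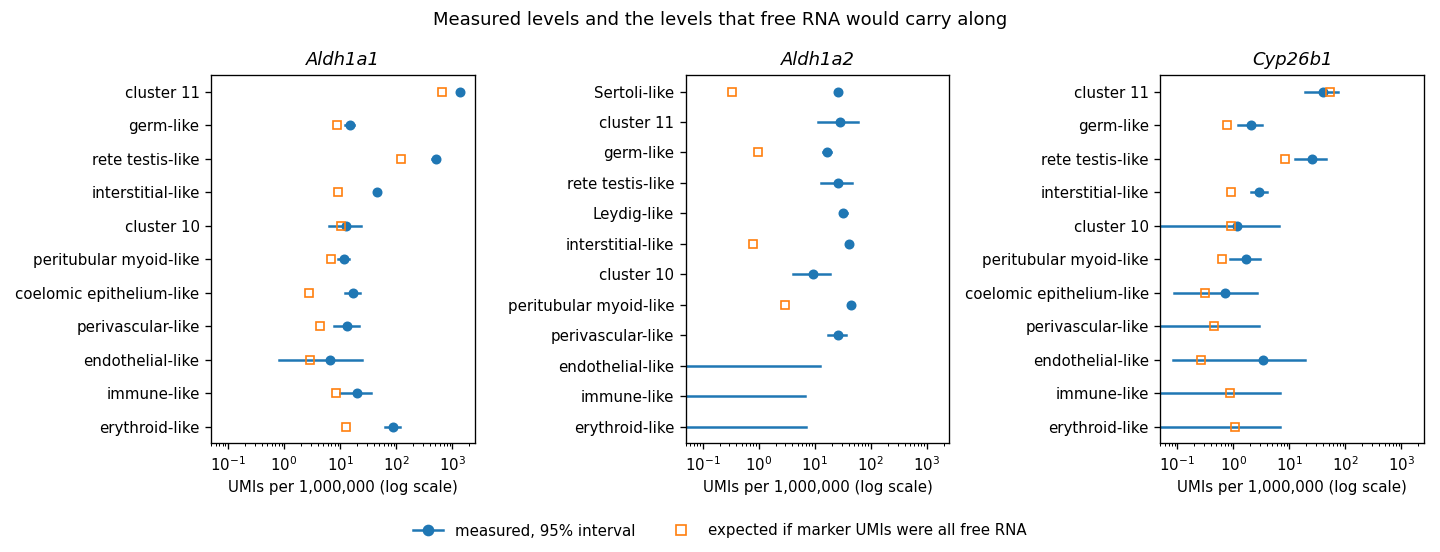
Measured levels of *Aldh1a1*, *Aldh1a2* and *Cyp26b1* (blue points with exact Poisson 95% intervals) beside the level that free RNA would carry along (orange squares), in UMIs per 1,000,000 on a log axis; the squares assume that all *Amh* and *Cyp11a1* UMIs of a group (for *Aldh1a2*, all *Upk3b* UMIs) were free, none is drawn where they are 0, and a line without a point is the interval of a group without a UMI. Interstitial-like *Aldh1a1* is 45.6 against 9.16 CPM, and cluster 10 is 12.9 against 10.2 CPM.

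The wider list held 60 genes of the pathway, the 9 included, of which 39 had at least 50 UMIs and *Cyp26a1*, *Cyp26c1*, *Dhrs9* and *Hoxb1* had none. The list placed *Adh5*, *Adh1* and *Rdh14* at the step from retinol to retinaldehyde, and how far their enzymes carry it out was not measured. *Adh5* was at 689 CPM (668 to 711) in Leydig-like and 504 CPM (492 to 517) in Sertoli-like cells. *Adh1* was at 373 CPM (357 to 389) in Leydig-like and 24.9 CPM (22.2 to 27.8) in Sertoli-like cells, and *Rdh14* between 9.29 and 49.1 CPM in all groups. *Dhrs3*, for the reverse step, was at 86.3 CPM (78.9 to 94.3) in Leydig-like, 31.5 CPM (28.6 to 34.7) in interstitial-like and 0.780 CPM (0.374 to 1.44) in Sertoli-like cells, 111-fold (59.7 to 232) between the first and the last. *Dhrs4* was highest in coelomic epithelium-like cells, at 149 CPM (135 to 164).

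Of the genes for uptake and storage of retinol, *Dgat1* stayed between 5.86 and 23.7 CPM in the groups where it was seen, and *Rbp4*, for the carrier of retinol in blood, was at 58.6 CPM (43.5 to 77.2) in cluster 10 and 29.1 CPM (24.9 to 33.9) in Leydig-like cells. *Stra6*, for the retinol uptake receptor, was named after its values were seen, since with *Aldh1a3* it passed the 4-fold limit in rete testis-like cells, at 100 CPM (72.5 to 135). Of the RXR partners, *Rxra* was at 29.6 CPM (26.8 to 32.7) in interstitial-like and 5.38 CPM (3.65 to 7.63) in Leydig-like cells, and *Rxrb* at 45.2 CPM (40.9 to 49.9) in germ-like cells.

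The 3 genes with the most UMIs among those known to respond to retinoic acid were lower in Sertoli-like cells than in peritubular myoid-like and interstitial-like cells, while *Meis1* in Leydig-like cells, at 22.0 CPM (18.4 to 26.2), was near the Sertoli-like level. *Meis2* was at 336 CPM (322 to 350) in peritubular myoid-like, 278 CPM (259 to 299) in coelomic epithelium-like, 88.3 CPM (83.3 to 93.4) in interstitial-like and 5.07 CPM (3.91 to 6.46) in Sertoli-like cells. *Meis1* was at 114 CPM (107 to 123) in peritubular myoid-like and 25.2 CPM (22.5 to 28.1) in Sertoli-like cells, and *Rarres2* at 131 CPM (125 to 137) in interstitial-like and 4.21 CPM (3.17 to 5.50) in Sertoli-like cells. Low levels of these genes were not particular to Sertoli-like cells. All 3 were at least 4-fold lower in germ-like cells than in all other cells, as were 8.07% of genes. *Meis2* was so in Leydig-like cells, as were 1.65% of genes. In the *Nppc* and *Vsnl1* and the *Clps* and *Cyp11a1* clusters, *Meis2* was at 26.3 and 14.3 CPM and *Rarres2* at 35.3 and 1.55 CPM. Other genes known to respond to retinoic acid did not all share an arrangement. *Tgm2*, named after its values were seen, was at 0.936 CPM in Sertoli-like and 41.25 CPM in interstitial-like cells. For *Rarb* the levels were 0.234 and 3.11 CPM. *Rarres1*, named after its values were seen, passed the 4-fold limit in Sertoli-like cells, at 29.3 CPM (26.4 to 32.4). The corepressor gene *Ncor1* was at 192 CPM in Sertoli-like and 87.4 CPM in germ-like cells, and *Nrip1* at 58.0 and 10.4 CPM.

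Over the 12 clusters of at least 50 cells, the patterns of some of the enzyme genes followed each other. The Pearson r of log2(CPM + 5) was 0.950 between *Aldh1a1* and *Cyp26b1*, 0.826 between *Aldh1a1* and *Aldh1a3*, and 0.829 between *Aldh1a3* and *Cyp26b1*. Between *Aldh1a1* and *Rarg* it was -0.830, and between *Crabp1* and *Crabp2* 0.707. Among 11126 genes with at least 200 UMIs, the most like *Aldh1a1* were *Mcrip2* (0.985), *Eps8* (0.983) and *Susd3* (0.981), and the most like *Cyp26b1* were *Susd3* (0.969), *Aldh1a7* (0.967) and *Slc12a7* (0.964). For *Aldh1a2* they were *Stk26*, *Ado* and *Csf1r* (0.901 to 0.864), for *Aldh1a3* *Cyp11a1*, *Nt5dc3* and *Phb2* (0.937 to 0.925), and for *Rdh10* *Tmem200a*, *Igf2* and *Alox5ap* (0.925 to 0.916). *Crabp1* was most like *Socs5*, *Id4* and *Ncbp3* (0.868 to 0.837), *Crabp2* most like *Guk1*, *Bckdhb* and *Bnc2* (0.824 to 0.753), *Rara* most like *Taf11*, *Cxxc5* and *Nab2* (0.926 to 0.911), and *Rarg* most like *Ypel3*, *Trim45* and *Ncoa3* (0.916 to 0.865). The clusters come from 1 library, differ in depth and leave out the small rete testis-like, immune-like, erythroid-like and endothelial-like clusters. *Csf1r*, a marker used to name immune-like cells, was matched to *Aldh1a2* without these cells, which had no *Aldh1a2* UMI. *Aldh1a3* was likewise matched without the rete testis-like cells, where it was highest and which held 62 of its 153 UMIs. That total is under the 200 UMIs asked of the genes compared, so its matches rest on few counts, most of them in Leydig-like cells (48 UMIs). The values of likeness describe the clusters compared and carry no test.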

How the data were processed

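The authors deposited UMI counts per gene and barcode, made with Cell Ranger on mm10 joined to YFP and not normalized. The matrix header gives software version 3.1.0, the labels 3.0.2 and 3.1.0, and the methods another version. The 9 genes, the pathway list and the tests were chosen with earlier results of these data known. Barcodes under 200 genes were left out (372), as were 204 doublets scored against artificial doublets (4.04% of the remaining 5049) and 1023 cells that lay over 3 median absolute deviations from the median in their UMIs or genes (log scale) or their share of mitochondrial or ribosomal-protein UMIs. Cells were clustered with Seurat 5.3.0 and sctransform 0.4.2 (R 4.3.3), with 30 components, resolution 0.8, regressing out cell-cycle scores and the mitochondrial share. Of the 3000 variable genes, the 22 on the pathway list, 7 of the 9 genes among them, were taken out before the components were computed.

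A cluster took the name of a class ("-like") when its markers averaged a log2 ratio of at least 0.8 to all other cells (5 CPM added; limit set after the clusters were seen), with at least 3 markers in 25% of its cells. It stayed unnamed if another class had more markers among its 10 leading genes, or if it was shallow (median UMIs under those of the library divided by 3) with none of its own there. Levels are sums of counts per 1,000,000 UMIs. Intervals of ratios come from the exact binomial interval of the counts. The remaining steps ran in Python 3.11.15 with pandas 2.3.3, matplotlib 3.10.9, scikit-learn 1.9.0, scipy 1.17.1 and numpy 2.4.6. Of them, only the sums per group, the folds over all other cells, the Poisson intervals and the naming rule were tested on simulated data. Gene positions are of the GENCODE annotation of GRCm38. All 9 genes were described in every class. Of the wider list, up to 3 genes per role with at least 100 UMIs were named, those with the most UMIs first, with *Aldh1a7*, *Stra8* and *Rarb*; some genes that this rule names are not reported here. For each gene the 3 most alike over clusters were named. The closing section gives the alternatives tried, of which leaving out the *Nppc* and *Vsnl1* cluster was chosen after seeing the data. The mutant library was not used here.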

Additional observations from a re-analysis of the deposited data

Results flagged for a closer look

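Barcodes with fewer than 200 genes belonged to no group of cells above, and only their levels of *Aldh1a1* and *Cyp26b1* were set beside those of the groups. In these 372 barcodes, with 1409901 UMIs, of which 46.8% were of hemoglobin and 49.2% of mitochondrial genes, *Aldh1a1* had 18 UMIs in 18 barcodes, 12.8 CPM (95% interval 7.57 to 20.2), and *Cyp26b1* 4 UMIs in 3 barcodes, 2.84 CPM (0.773 to 7.26). Both counts were above the limit of 3 counts that was used for a gene that is not seen (2.13 CPM), and the other genes had 2 UMIs or fewer. In the same barcodes the Sertoli gene *Amh* had 9 UMIs and the Leydig gene *Cyp11a1* 14.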

How the results depend on the processing

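The level of *Aldh1a1* in Leydig-like cells became 1690 CPM with an outlier limit of 5 median absolute deviations, 1678 without that filter, 1658 without removal of doublets, 1700 with the pathway genes in the clustering, 1716 after log-normalization, 1669 with each cell classed by itself and 1683 without the *Nppc* and *Vsnl1* cluster, an alternative chosen after seeing the data. *Cyp26b1* in Leydig-like cells became 227.0, 228, 255, 262 and 258 CPM under the first 4 and the sixth of these, and 199 CPM without that cluster. *Aldh1a2* in coelomic epithelium-like cells was 324 CPM with 5 median absolute deviations, *Aldh1a3* in rete testis-like cells 63.8 CPM with each cell classed by itself, and *Crabp1* in peritubular myoid-like cells 15.2 CPM at resolution 1.2 and 12.3 CPM with each cell classed by itself.

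Ratios changed direction for neighbours that did not differ beyond counting error. The log2 ratio of *Crabp2* in coelomic epithelium-like cells over cluster 10 was -0.0107 after log-normalization, that of *Rara* in Sertoli-like over rete testis-like cells -0.12 with the doublet rate doubled and -0.11 as a mean of single cells, and that of *Rarg* in cluster 10 over germ-like cells -0.0240 without removal of doublets. The cause was not tested. Of 100 alternative levels 83 stayed within their interval, as did 82 of 99 log2 ratios and 4 of 9 shares, the latter thinned to 3000 UMIs. Cluster 10 had no counterpart with each cell classed by itself. *Aldh1a1*, *Aldh1a2*, *Aldh1a3*, *Cyp26b1* and *Crabp1* kept their highest class under the 11 other alternatives that ranked the classes, and without the *Nppc* and *Vsnl1* cluster *Cyp26b1* was highest in that cluster itself (294 CPM). Unnamed cells other than cluster 10 were left out of that ranking. They were 958 cells (25.1%) after log-normalization and 242 at resolution 1.2.

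With 1 library of 12 pooled testes, intervals hold no spread between animals, and no paired analysis was possible because there is 1 sample. Rete testis-like and endothelial-like levels rest on 31 and 24 cells. Class names were rebuilt from markers and may differ from the authors'.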
